A study of Mus musculus with 4 samples.

Results

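Igf2, Zic1, Mrgprf, Dcn, Lum, Aldh1a2, Mgp and Foxc1 were grouped here as 8 genes of meningeal fibroblasts. Their expression was followed in mouse brain after a stroke. They were chosen by symbol from the 16535 genes that the array names, and 10 of its 41174 probes measure them. Igf2 and Zic1 have 2 probes each and the other 6 genes have 1. Zic1, Igf2 and Mrgprf were selected on their ischemic over healthy ratios, which pointed in opposite directions in core and penumbra, so those ratios are given here as a description and with no test. The other 5 genes were added as further meningeal genes with the results of the data known.

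All tissue came from male C57BL/6J mice aged 9 weeks, 6 h after a filament left in the vessel had closed the middle cerebral artery for good (PMCAO), and saline had been given into the ventricle. The 4 groups were ischemic core, healthy core, ischemic penumbra and healthy penumbra, the core being where blood flow falls most and the penumbra the zone around it. On each of 4 two-colour arrays, all of 1 slide, ischemic RNA was hybridised together with RNA of the healthy tissue of the same region, with 2 arrays for the core (replicates 1 and 2) and 2 for the penumbra (replicates 3 and 4) in opposite dye order. The labels give 3 mice per group and do not mention pooling, and whether the healthy pieces were contralateral or from separate animals is not stated.

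The arrays of a region were counted as 1 replicate, because nothing states that they held different RNA extracts, and no p-value is given. A gene was called by size where its mean differed at least 2-fold (1 log2 unit) and each array by at least 1.5-fold in the same direction. Calls on the core ratio minus the penumbra ratio followed a different rule. This difference had to reach 1 log2 with no overlap between the arrays of the 2 regions. The 1.5-fold condition was not applied to it. Errors are SDs between the 2 arrays, or between the 2 dyes, of a comparison (n = 2 measurements of 1 replicate) and say nothing about animals. The median signal of an array lay between 192 and 225.5 in Cy3 and between 284 and 310 in Cy5, over local backgrounds of 64 to 71, and 76.1% to 79.4% of spots were well above background. All 8 genes were well above background in all 4 tissues. Ratios are relative to all genes: a scaling to spike-in transcripts lowers every ischemic over healthy ratio by 0.47 log2 in the core and by 0.46 in the penumbra.

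Fibroblasts of the meninges, the membranes that cover the brain, build a collagen-rich matrix and secrete factors that act on the tissue beneath. Among these are Igf2, an imprinted insulin-like growth factor that choroid plexus also makes, and retinoic acid, which Aldh1a2 synthesizes. Zic1 is a zinc finger and Foxc1 a forkhead transcription factor, and both are needed for normal development of the mouse meninges. Dcn and Lum are small leucine-rich proteoglycans that bind collagen fibrils, Mgp encodes matrix Gla protein, an inhibitor of calcification, and Mrgprf encodes an orphan receptor of the Mas-related family. In pieces of tissue, fewer cells of a type and less RNA per cell cannot be told apart.

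Promoters of 4 of the 8 genes were matched by symbol in the RefSeq table of build GRCm38.p6, and 1 for each gene is shown because these genes had higher ratios in the penumbra than in the core together. Each is the 250 bases before the start site. Capitals mark the GC box GGGCGG and the CCAAT box CCAAT on either strand (CCGCCC and ATTGG on the other), and no marked motif overlaps another. Igf2 has 4 listed starts, of which the most downstream is shown at chr7:142657497-142657746 on the minus strand; which start gave the measured RNA is not known. Zic1 lies at chr9:91365769-91366018 on the minus strand, Aldh1a2 at chr9:71215539-71215788 on the plus strand and Foxc1 at chr13:31806396-31806645 on the plus strand.
Igf2: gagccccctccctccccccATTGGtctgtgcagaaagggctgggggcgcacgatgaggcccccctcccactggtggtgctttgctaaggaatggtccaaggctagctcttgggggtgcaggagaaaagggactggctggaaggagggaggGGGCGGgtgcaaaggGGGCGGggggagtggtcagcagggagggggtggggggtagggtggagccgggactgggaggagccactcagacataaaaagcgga
Zic1: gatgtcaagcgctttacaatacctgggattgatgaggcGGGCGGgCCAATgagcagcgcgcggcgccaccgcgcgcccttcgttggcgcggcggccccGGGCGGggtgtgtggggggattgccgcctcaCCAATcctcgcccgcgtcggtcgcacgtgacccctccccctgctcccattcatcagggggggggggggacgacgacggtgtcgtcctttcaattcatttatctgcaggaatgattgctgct
Aldh1a2: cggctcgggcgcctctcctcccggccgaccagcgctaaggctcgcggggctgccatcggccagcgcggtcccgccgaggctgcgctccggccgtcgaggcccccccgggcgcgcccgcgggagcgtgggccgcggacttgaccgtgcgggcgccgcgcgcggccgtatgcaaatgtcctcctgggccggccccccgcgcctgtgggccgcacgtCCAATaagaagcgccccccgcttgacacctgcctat
Foxc1: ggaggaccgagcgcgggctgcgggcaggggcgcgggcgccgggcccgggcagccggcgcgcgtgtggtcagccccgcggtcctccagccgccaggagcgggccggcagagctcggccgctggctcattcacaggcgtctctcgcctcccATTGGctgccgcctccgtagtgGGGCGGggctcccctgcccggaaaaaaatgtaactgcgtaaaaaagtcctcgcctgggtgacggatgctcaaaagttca

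The 4 windows had a GC content of 66.0% (Igf2), 66.0% (Zic1), 77.6% (Aldh1a2) and 70.8% (Foxc1), against a median of 52.4% over all 32851 promoters of the table. Each of the 4 held at least 1 CCAAT box, a motif found in 33.9% of all promoters, and Zic1 held 2. The GC box, in 32.7% of all promoters, occurred in the windows of Igf2 (2), Zic1 (2) and Foxc1 (1) and not in that of Aldh1a2. The letters TATAAA (12.4% of all promoters) and the forkhead letters GTAAACA (3.17%), also sought on both strands, were in none of the 7 listed windows of these genes. The other Igf2 starts had 0, 0 and 1 GC box and 0 CCAAT boxes. Their GC content was 50.8%, 47.6% and 68.8%, so not every Igf2 start lay above the median of all promoters.

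The ischemic over healthy ratios showed the same split by region in all 8 genes. Each had a lower ratio on both core arrays than on both penumbra arrays, as did 14.8% of 25246 features. Because these genes were chosen with such values known, the count is a description only. The growth factor Igf2 and the transcription factor Zic1 lay slightly below 0 in the core, and in the penumbra they were higher in ischemic tissue, by 1.38-fold and 1.53-fold. Mrgprf had the lowest core ratio of all features and a small positive one in the penumbra. None of the 8 was called higher or lower in either region, where the calls over all features were 0.31% higher and 0.0% lower of 24533 in the core, and 0.241% higher and 0.00401% lower of 24925 in the penumbra.

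Igf2 had log2 ratios of -0.10 and -0.06 on the core arrays and of 0.47 and 0.47 on the penumbra arrays. The core mean was -0.08 ± 0.02 and the penumbra mean 0.47 ± 0.0043, a 1.38-fold higher signal in ischemic penumbra. The arrays of the 2 regions did not overlap, and 557 of 24925 features had a higher penumbra ratio. Its other probe gave -0.02 and -0.21 in the core and 0.55 and 0.42 in the penumbra, on the same sides of 0.

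Zic1 had ratios of -0.01 and -0.27 in the core and of 0.66 and 0.56 in the penumbra. Its core mean, -0.14 ± 0.18, was smaller than its SD, while the penumbra mean was 0.61 ± 0.07 (1.53-fold), with 271 features higher. The other Zic1 probe had 0.09 and -0.09 in the core, so that the core direction differed between its arrays, and 0.71 and 0.68 in the penumbra. Foxc1, the other transcription factor, had 0.06 and 0.02 in the core and 0.25 and 0.15 in the penumbra, with means of 0.04 ± 0.03 and 0.20 ± 0.07. It was the only one of the 8 with both core arrays above 0, and its penumbra mean was the second lowest.

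Mrgprf had ratios of -0.76 and -0.96 in the core and of 0.23 and 0.09 in the penumbra. The core mean of -0.86 ± 0.14 (0.550-fold) was lower than that of every other feature measured there, yet below the 1 log2 needed for a call. It was called lower with the processed signals of the scanner software (-1.05), which carry no added offset, and with spike-in scaling (-1.34). In the penumbra its mean was 0.16 ± 0.10, the lowest of the 8, and 4326 features were higher.

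The proteoglycan Dcn had ratios of -0.15 and 0.02 in the core and of 0.49 and 0.85 in the penumbra. Its penumbra mean, 0.67 ± 0.26 (1.59-fold), was the highest of the 8, and the spread between its arrays was also the widest there. Lum had 0.29 and -0.22 in the core, a mean of 0.04 ± 0.36 with no settled direction, and 0.50 and 0.41 in the penumbra, a mean of 0.46 ± 0.07. The 2 proteoglycans thus showed no direction in the core and were 1.59-fold and 1.37-fold higher in the penumbra.

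Aldh1a2, the retinoic acid enzyme, had -0.03 and -0.31 in the core and 0.70 and 0.39 in the penumbra. The means were -0.17 ± 0.19 and 0.55 ± 0.22, and it shared with Igf2, Zic1 and Mrgprf the pattern of both core arrays below 0 and both penumbra arrays above. Mgp had -0.04 and 0.00 in the core, a mean of -0.02 ± 0.03, and 0.27 and 0.25 in the penumbra, a mean of 0.26 ± 0.01. Dcn and Mgp missed the opposite-sign pattern by 1 core array each, at 0.02 and 0.00.

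Over the 8 genes the median ratio was -0.07 in the core and 0.46 in the penumbra, against -0.01 over all features in both regions. In the core 4 of 8 lay below 0 and 1 above on both arrays, as did 28.0% and 26.9% of all features, and for 5 of the 8 the mean was smaller than the SD. In the penumbra 8 of 8 lay above 0 on both arrays, as did 30.3% of all features. The genes were chosen with these values known, so the counts describe them only. With spike-in scaling all 8 were below 0 in the core (median -0.55), and in the penumbra Zic1 (0.15), Dcn (0.21), Aldh1a2 (0.08) and Igf2 (0.01) stayed above 0, while Lum (-0.01), Mgp (-0.20), Foxc1 (-0.27) and Mrgprf (-0.30) fell below it.

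**Figure D1:**
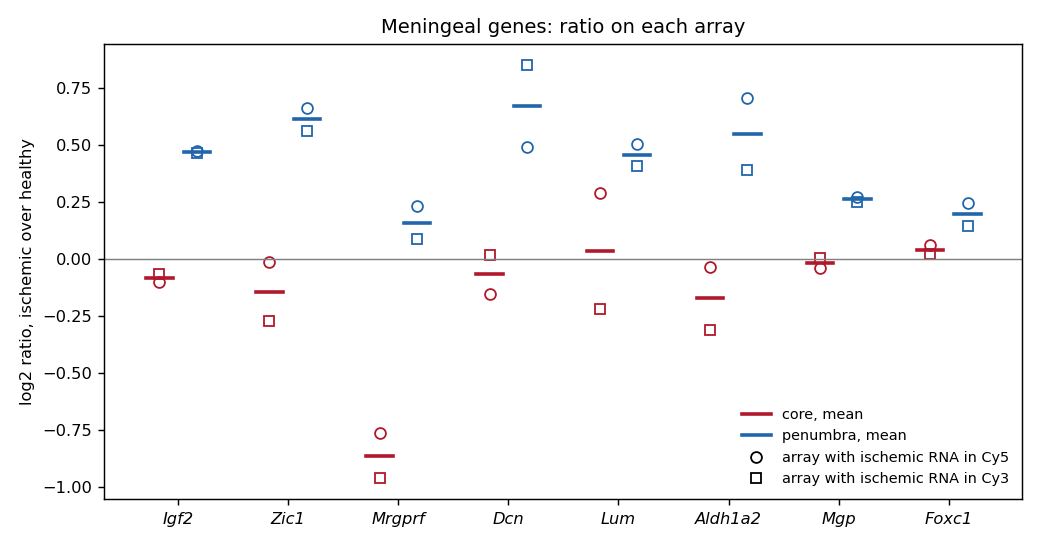
Log2 ratio of ischemic over healthy tissue for each of the 8 genes, with the 2 core arrays and the 2 penumbra arrays as points and their mean as a line. Every gene had both core points below both penumbra points, as did 14.8% of all features. Spike-in scaling would lower core points by 0.47 and penumbra points by 0.46, which puts the penumbra means of Lum, Mgp, Foxc1 and Mrgprf below 0.

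The core ratio minus the penumbra ratio was below 0 for all 8 genes, with a median of -0.63 against 0.01 over all features. Both core arrays lay below both penumbra arrays in 8 of 8, a pattern found in 14.8% of 25246 features, and the stricter pattern of opposite signs was found in 4 of 8 and in 3.42% of all features. Of these 4, Igf2, Zic1 and Mrgprf had been picked for that pattern and only Aldh1a2 had not. The other genes were added with the data known, so these counts and the ranks that follow describe the choice of genes. Mrgprf had the largest difference, -1.02, and was the only one of the 8 called lower, among 0.0198% of features called lower and 0.0396% called higher. Only 4 features had a lower difference, but the call ended without core replicate 2 (-0.92) or without penumbra replicate 3 (-0.95). The differences of Zic1 (-0.76), Dcn (-0.74), Aldh1a2 (-0.72) and Igf2 (-0.55) had 32, 35, 37 and 87 features below them. Lum (-0.42), Mgp (-0.28) and Foxc1 (-0.16) differed less, with 2600 features below Foxc1.

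**Figure D2:**
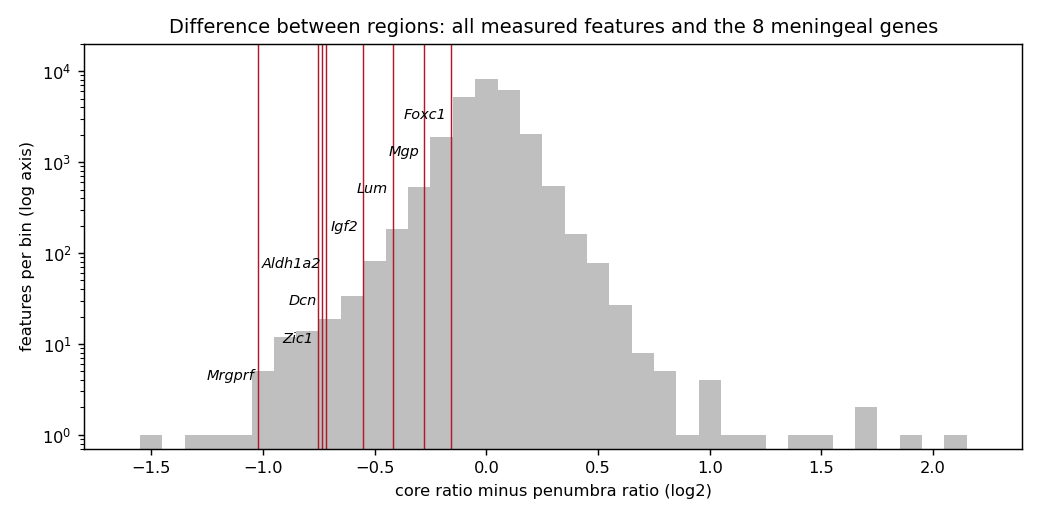
Number of features (log axis) by core ratio minus penumbra ratio in log2, with each of the 8 genes marked. All 8 lie left of 0, with Foxc1 at -0.16 nearest to it and Mrgprf at -1.02 farthest. Spike-in scaling changes this difference little, because it lowers both ratios by nearly the same amount.

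The single-channel levels showed which tissue stood apart for each gene, and the 8 genes fell into 3 kinds. Igf2 and Zic1 were highest in ischemic penumbra. Mrgprf was high in healthy core alone, and its ischemic core lay near the 2 penumbra tissues. The other 5, Dcn, Lum, Aldh1a2, Mgp and Foxc1, had higher means in both core tissues than in both penumbra tissues. Some traits were shared between these kinds. Mrgprf, like those 5, was lowest in healthy penumbra, and Dcn, Aldh1a2 and Mgp also had their highest mean in healthy core. These levels come from the same 4 arrays as the ratios, so they restate them by tissue and are no further evidence for them. Levels are log2 signals of 1 probe, and were compared between tissues only, not between genes. The order of the 2 values is Cy5 and then Cy3.

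Igf2 had levels of 12.19 and 12.10 in ischemic core, against 12.16 and 12.29 in healthy core. It had 12.80 and 12.75 in ischemic penumbra, against 12.29 and 12.33 in healthy penumbra. Ischemic penumbra lay above the other 3 tissues in both dyes, and those 3 overlapped with their neighbours in the order healthy penumbra, healthy core, ischemic core. Zic1 had 10.55 and 10.51 in ischemic core, against 10.78 and 10.56 in healthy core. In the penumbra it had 11.60 and 11.70 in ischemic tissue, against 11.14 and 10.93 in healthy tissue. The 4 tissues of Zic1 kept the same order as those of Igf2, with no overlap between neighbours.

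Mrgprf had 7.95 and 7.96 in ischemic core, against 8.92 and 8.72 in healthy core. It had 8.10 and 7.95 in ischemic penumbra, against 7.86 and 7.87 in healthy penumbra. Healthy core stood above the other 3 tissues by at least 0.80 between means, and these 3 lay within 0.16 of each other, with ischemic penumbra and ischemic core overlapping.

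Aldh1a2 had 10.87 and 10.83 in ischemic core, against 11.13 and 10.90 in healthy core, and 10.29 and 10.21 in ischemic penumbra, against 9.82 and 9.59 in healthy penumbra. No neighbours overlapped in the order healthy core, ischemic core, ischemic penumbra, healthy penumbra. Dcn had 12.00 and 11.90 in ischemic core, against 11.88 and 12.15 in healthy core, and 11.75 and 11.90 in ischemic penumbra, against 11.05 and 11.26 in healthy penumbra. Mgp had 13.41 and 13.51 in ischemic core, against 13.51 and 13.45 in healthy core, and 13.14 and 13.14 in ischemic penumbra, against 12.89 and 12.87 in healthy penumbra. Dcn and Mgp followed the order of Aldh1a2, and their 2 core tissues overlapped.

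Lum had 9.05 and 8.82 in ischemic core, against 9.04 and 8.76 in healthy core, and 8.63 and 8.74 in ischemic penumbra, against 8.33 and 8.13 in healthy penumbra. Foxc1 had 9.96 and 10.02 in ischemic core, against 10.00 and 9.90 in healthy core, and 9.74 and 9.59 in ischemic penumbra, against 9.44 and 9.49 in healthy penumbra. For both genes the 2 core tissues overlapped and stood above ischemic penumbra, which stood above healthy penumbra.

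**Figure D3:**
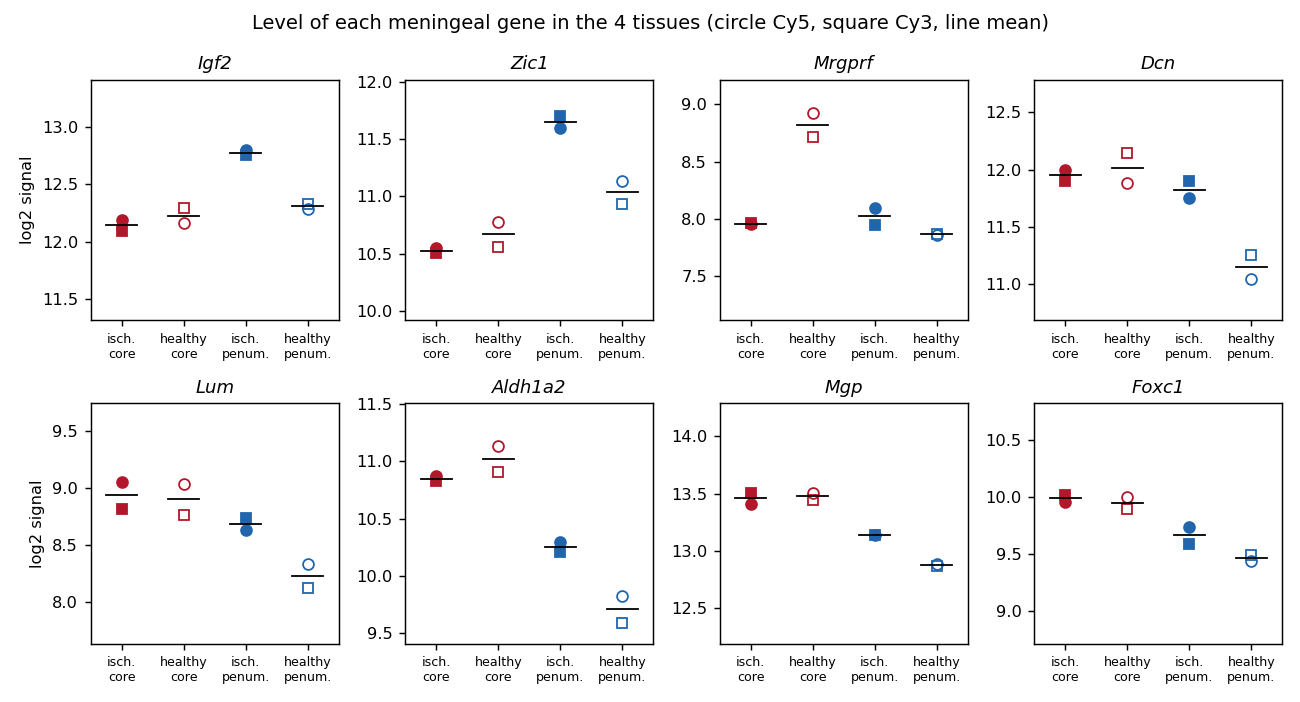
Log2 single-channel signal of each gene in the 4 tissues, with circles for Cy5, squares for Cy3 and a line for the mean of the 2; filled points are ischemic and open points healthy tissue. Igf2 and Zic1 peak in ischemic penumbra and Mrgprf in healthy core. The other 5 genes have higher means in both core tissues than in both penumbra tissues. Mrgprf and those 5 are lowest in healthy penumbra, and Dcn, Aldh1a2 and Mgp also have their highest mean in healthy core.

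Between the 2 healthy tissues, core over penumbra, Aldh1a2 was the only one of the 8 called higher, at 1.31 ± 0.0015 log2 (2.49-fold), where 0.313% of 24891 features were called higher and 0.82% lower. Mrgprf followed at 0.96 ± 0.15 (1.94-fold), uncalled, and was called with processed signals (1.22) and in Cy5 alone (1.06). Dcn had 0.86 ± 0.04, which processed signals also called (1.04), Lum 0.67 ± 0.05, Mgp 0.60 ± 0.03 and Foxc1 0.48 ± 0.11. Zic1 was lower in healthy core, by -0.36 ± 0.0093, and Igf2 had -0.08 ± 0.06 with its other probe at 0.03 ± 0.11. In both dyes 6 of 8 lay above 0 and 2 below, as did 41.0% and 32.1% of features, and the median was 0.63 against 0.01 over all features.

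Between the 2 ischemic tissues, core over penumbra, Zic1 was the only one called lower, at -1.12 ± 0.10 (0.460-fold), where 0.442% of 24872 features were called higher and 0.913% lower. Its other probe gave -1.04 ± 0.18. Igf2 had -0.63 ± 0.03 and Mrgprf -0.06 ± 0.11, smaller than its SD. Aldh1a2 had 0.60 ± 0.03, Foxc1 0.32 ± 0.15, Mgp 0.32 ± 0.08, Lum 0.25 ± 0.24 and Dcn 0.13 ± 0.17, the last again smaller than its SD. In both dyes 5 of 8 lay above 0 and 2 below, as did 41.5% and 32.3% of features, and the median was 0.19 against 0.02 over all features.

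Across the 8 levels (4 tissues in 2 dyes of the same 4 arrays) the genes resembled each other in the same groups. The correlation was 0.930 between Igf2 and Zic1, and 0.841 to 0.994 among Dcn, Lum, Aldh1a2, Mgp and Foxc1. Mrgprf correlated with those 5 genes at 0.49 to 0.68, with Igf2 at -0.24 and with Zic1 at -0.33. With the same 5 genes Igf2 correlated at -0.47 to -0.02 and Zic1 at -0.64 to -0.27. The 8 genes carry 1 label but did not share 1 pattern over the tissues, and these correlations are descriptions over shared arrays. Which cells gave the measured RNA was not tested.

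Of 496 candidate genes that ranged over at least 1 log2, those most like Igf2 were Tshz2, a zinc finger gene (r = 0.979), Calca, which encodes calcitonin gene-related peptide (0.971), Prkcd, protein kinase C delta (0.961), and Fign (0.957). All 4 had higher penumbra than core ratios, among them Prkcd with -0.29 ± 0.0045 in the core and 1.21 ± 0.11 in the penumbra, where it was called higher. Those most like Zic1 were the sulfate transporter Slc13a4 (0.997), Plcz1 (0.990), Agt, which encodes angiotensinogen (0.988), and Capsl (0.982). Their core ratios were between -0.26 and -0.13 and their penumbra ratios between 0.57 and 0.81. Mrgprf had no gene as close: Col3a1, a fibrillar collagen chain, came first (0.907), with -0.61 ± 0.09 in the core, 0.27 ± 0.07 in the penumbra and 1.20 ± 0.03 in healthy core over healthy penumbra. The complement gene C2 (0.836), Lrg1 (0.795) and Sphkap (0.766) followed, with ratios below 0 in both regions. All of these genes were picked by likeness over the levels that also give the ratios. Where r was high, similar ratios follow from that choice, so they are a description only.

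The direction of the 8 genes was also that of the medians of a list of other meningeal fibroblast genes, of which 34 of 35 were measured. Like every list here, it was chosen with earlier results of these data known, so its counts and medians are a description only. In the core 19 of 34 lay below 0 and 6 above on both arrays (28.0% and 26.9% of all features), with a median of -0.09. In the penumbra 23 lay above and 3 below (30.3% and 32.4% of all features), with a median of 0.20, which spike-in scaling turned to -0.26. The gap junction gene Gjb2 was the only one called in either region, higher at 1.40 ± 0.15 in the core and 1.23 ± 0.20 in the penumbra. In healthy core over healthy penumbra 5 of 34 were called higher (0.313% of all features), led by the proteoglycan Fmod (1.23 ± 0.04), Col3a1 (1.20 ± 0.03) and the organic anion transporter Slc22a6 (1.17 ± 0.15), and the list median was 0.37. In both dyes 27 of the 34 lay above 0 and 6 below (41.0% and 32.1% of all features).

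The collagen chains Col1a1 and Col1a2, chosen after their values were seen, resembled Col3a1. Col1a1 had -0.43 and -0.55 in the core and 0.20 and 0.21 in the penumbra. Col1a2 had -0.47 and -0.29 in the core and 0.24 and 0.38 in the penumbra. Neither was called, and spike-in scaling puts the penumbra values of both below 0. Other genes lacked the higher penumbra ratio. Core and then penumbra means were -0.44 and -0.12 for Pdgfra, -0.42 and -0.08 for Lama1. They were -0.35 and -0.04 for Islr, -0.20 and -0.28 for Osr1. The penumbra means of Pdgfra and Islr were smaller than their SD. Of the 34 listed genes, 23 lay above 0 on both penumbra arrays and 3 below (30.3% and 32.4% of all features).

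Markers of choroid plexus and ependyma, the cells that line the ventricles, were higher in ischemic than in healthy penumbra, as the 8 genes were. In the core the median of 13 measured genes was 0.02 and turned to -0.01 with processed signals or median centring and to -0.46 with spike-in scaling. In the penumbra all 16 measured genes were above 0 on both arrays (30.3% of all features), with a median of 0.63 (0.16 with spike-in scaling). Their summed signal was 24021 to 24510 in ischemic core, against 21972 to 23250 in healthy core, and 100901 to 102570 in ischemic penumbra, against 65483 to 69584 in healthy penumbra. Among the 12 that were well above background in all 4 tissues, the median core over penumbra difference was -3.59 in ischemic and -3.02 in healthy tissue. Of these 12, 11 and 9 were called lower (0.913% and 0.82% of all features). Kcne2, a potassium channel subunit, had -4.35 ± 0.01 and -3.40 ± 0.11. The 8 meningeal genes themselves summed to 24781 to 24876 in ischemic core, against 25965 to 26040 in healthy core, and to 25506 to 25696 in ischemic penumbra, against 19055 to 19097 in healthy penumbra. In such sums of linear signals the brightest probes weigh most. Here that was Mgp (log2 level of 13.46 in ischemic core), while Mrgprf (7.96) hardly counted. What part choroid plexus RNA had in the ratios of the 8 genes was not tested.

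Regional markers also differed between the dissected pieces. Of 11 striatal genes 9 were called lower in ischemic core than in ischemic penumbra and 10 in the healthy pair (0.913% and 0.82% of all features). The medians were -1.47 and -1.78, and the dopamine receptor Drd2 led at -2.33 ± 0.0027 in the healthy pair. Of 10 cortical genes 3 were called higher in each pair (0.442% of all features in the ischemic and 0.313% in the healthy pair). In the healthy pair 1 was called lower (0.82% of all features). The cortical medians were 0.74 (ischemic) and 0.45 (healthy). The ischemic over healthy median of the striatal list was 0.18 for the core and -0.14 for the penumbra, the opposite order to the 8 genes, and spike-in scaling turned the core value to -0.29. The list of thalamus, habenula and septum had the order of the 8 genes, with an ischemic over healthy median of -0.08 for the core and 0.15 for the penumbra (-0.31 with spike-in scaling). Of its 11 measured genes Prkcd was the only one called in these ratios, with -0.29 ± 0.0045 in the core and a call of higher in the penumbra at 1.21 ± 0.11, and was also called lower for the core ratio minus the penumbra ratio. The part of such regional differences in the values of the 8 genes was not tested.

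Lists of vessel, blood and muscle cells had ischemic over healthy medians between -0.11 and 0.09. Smooth muscle genes had medians of -0.11 in the core and 0.06 in the penumbra, pericyte genes -0.04 and -0.06, and endothelial genes 0.05 and 0.08. With spike-in scaling all of these medians were below 0, and median centring turned the endothelial penumbra value just below it. None of the genes in these 3 lists was called in either region, nor were any of the 3 red cell or 7 skeletal muscle genes measured. Over all features 0.31% were called higher in the core and 0.241% in the penumbra, so the lack of calls in such short lists says little.

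**Figure D4:**
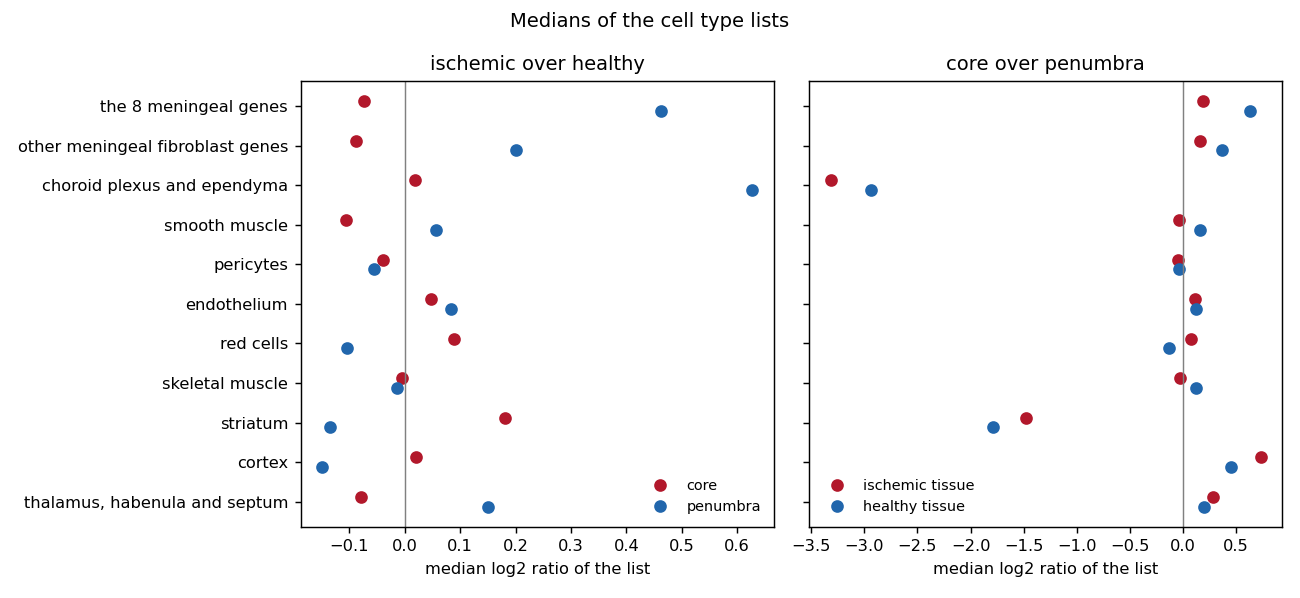
Median log2 ratio of each cell type list, ischemic over healthy in the left panel and core over penumbra in the right panel. The meningeal and choroid plexus lists have penumbra medians of 0.20 to 0.63, and spike-in scaling, which lowers penumbra values by 0.46, puts the 2 meningeal medians below 0. In the right panel the choroid plexus and striatal lists lie at -1.47 or lower.

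Other members of the pathways and families of these genes were read from 6 lists, with the 8 genes left out of the counts and medians. Of 17 other measured genes of the insulin-like growth factor axis, which includes the receptors and binding proteins for Igf2, 0 were called in either region and the medians were 0.02 in the core and 0.07 in the penumbra (both negative with spike-in scaling). Over all features 0.31% were called higher in the core and 0.241% in the penumbra, so 0 calls in a list this short say little. The bright binding proteins Igfbp7 and Igfbp5 had 0.01 ± 0.14 and -0.15 ± 0.39 in the penumbra. Igfbpl1, a binding protein-like gene, was called lower in healthy core than in healthy penumbra (-1.19 ± 0.0015). The receptors Igf1r and Igf2r, chosen after their values were seen, had 0.07 ± 0.18 and -0.02 ± 0.16 in the penumbra, both smaller than their SD. Of the 17 genes 7 lay above 0 on both penumbra arrays and 2 below (30.3% and 32.4% of all features). Igf1 (0.36 ± 0.01) and Stc2 (0.75 ± 0.18) were among those above, and Igfbp4 (-0.31 ± 0.06) among those below.

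Among 13 other measured Zic and Fox transcription factors 0 were called in either region (0.31% and 0.241% of all features were called higher). Their core median was 0.01 and their penumbra median 0.03. Spike-in scaling turned both negative, as median centring did the core value. Foxp1 had a core ratio of 0.06 ± 0.06 and a penumbra ratio of -0.28 ± 0.08, the opposite order to Zic1. Zic4, which neighbours Zic1 in the mouse genome, and the stromal forkhead gene Foxd1 were chosen after their values were seen. Zic2 and Zic4 also count in the list of thalamus, habenula and septum, and Foxd1 and Foxp2 among the other meningeal fibroblast genes. Zic4 had -0.37 and -0.21 in the core and 0.15 and 0.26 in the penumbra. Foxd1 had -0.25 and -0.35 in the core and 0.27 and 0.14 in the penumbra. Both thus had opposite signs in the regions on all 4 arrays, but spike-in scaling puts their penumbra values below 0. Foxp2 (core 0.17 ± 0.35, penumbra -0.20 ± 0.27) and Zic2 (0.01 ± 0.14 and 0.05 ± 0.21) did not show this, with means smaller than their SD. Of the 13 genes, 5 lay above 0 on both penumbra arrays and 4 below, near the shares of all features (30.3% and 32.4%). Of the other Mas-related receptors, Mas1 had a core ratio of 0.70 ± 0.01 and a penumbra ratio of 0.64 ± 0.06. Mrgpre had -0.21 ± 0.22 in the core, smaller than its SD, with a penumbra ratio of -0.19 ± 0.05.

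Of 10 measured small leucine-rich proteoglycans other than Dcn and Lum, 7 lay below 0 on both core arrays (28.0% of all features) and 5 above 0 on both penumbra arrays (30.3%), with medians of -0.15 and 0.08, and spike-in scaling turned the penumbra median to -0.38. Fmod, Ogn and Bgn also count among the other meningeal fibroblast genes, so the 2 lists are not separate results. Prelp had a core ratio of -0.15 ± 0.20 and a penumbra ratio of 0.41 ± 0.02, and was called lower in ischemic core than in ischemic penumbra at -1.15 with a wide SD of 0.75. Of 17 genes of retinoic acid synthesis, binding and reception other than Aldh1a2, 0 were called in either region. Of all features 0.31% were called higher in the core and 0.241% in the penumbra. In healthy core over healthy penumbra, where Aldh1a2 was called higher, 4 of the 17 were called lower (0.82% of all features). Among them were the receptors Rxrg (-2.39 ± 0.05) and Rarb (-1.96 ± 0.09) and the binding protein Crabp1 (-1.63 ± 0.06). Rxrg, Rarb and Crabp1 were also called lower in ischemic core than in ischemic penumbra (-2.01, -1.84 and -1.49). In the healthy pair 10 of 11 striatal genes were called lower too, and the part of such regional differences in these values was not tested. Of 20 other genes in the list of Mgp, bone morphogenetic proteins and their regulators, 0 were called in any of the 5 comparisons. In each comparison at most 0.913% of all features were called in either direction, so 0 calls among 20 genes say little. Id2, a target of these proteins, had a core ratio of -0.09 ± 0.10 and a penumbra ratio of -0.15 ± 0.09.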

How the data were processed

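The authors deposited scanner files that hold the Cy3 and Cy5 intensity of each spot, as Agilent Feature Extraction 11.0.1.1 wrote it (per the file headers), and a series table of log10 ratios, which equalled the log10 of processed Cy5 over processed Cy3 intensity to within 5e-06. That deposited table had column medians of -0.0215, 0.00516, -0.0199 and -0.0115, and its scale and direction were thereby known. There were 0 columns of mean signals in these files, and median signals were therefore background-corrected by normexp (offset 50) and normalized by loess within arrays in limma 3.58.1 (R 4.3.3). Control and outlier spots had weight 0 and were then left out. Single channels were compared after Aquantile, within each dye. A comparison took features whose spots on both arrays were well above background for at least 1 of its tissues, and the brightest probe stood for a gene. Of 41174 probes, 23374 were named by accession without version through a RefSeq table of GRCm38.p6, giving 33269 features. Scripts ran in Python 3.11.15 with pandas 2.3.3, numpy 2.4.6 and matplotlib 3.10.9, and were tested on simulated data.

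The genes and 17 lists (232 entries, 224 on the array) were chosen with earlier results of these data known. Named were all 8 genes, of each list up to 3 called genes with the largest mean or else the brightest 2, and the 4 genes most like Igf2, Zic1 and Mrgprf by Pearson r. Not every gene the rule takes is reported. Alternatives were processed signals, median centring, no filter, the mean over probes, spike-in scaling, limma over arrays with and without a dye term (adjusted p of 0.05), and leaving out each array or dye. All arrays were on 1 slide, so no batch was tested. The number of arrays limits the precision.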

Additional observations from a re-analysis of the deposited data

Results flagged for a closer look

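For 4 genes both core arrays lay below 0 and both penumbra arrays above 0, so that every array of one region pointed the other way from every array of the other. The core ratio minus the penumbra ratio was -0.55 log2 for Igf2, -0.76 for Zic1, -1.02 for Mrgprf and -0.72 for Aldh1a2. The difference was not tested, since each region had 1 replicate, and Igf2, Zic1 and Mrgprf had been picked for it. The other probe of Zic1 had 0.09 and -0.09 on the core arrays. With spike-in scaling the penumbra mean of Mrgprf was -0.30, below 0 like its core mean.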

How the results depend on the processing

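Processed signals raised the number of features called, to 264 in the core (76 as reported), 227 in the penumbra (61), 181 for the difference (15), 865 between healthy tissues (282) and 1040 between ischemic tissues (337), and moved the median of the 8 genes to 0.73 between healthy and 0.33 between ischemic tissues. Median centring gave medians of 0.39 in the penumbra and -0.53 for the difference. Spike-in scaling gave a core median of -0.55 and a penumbra median of -0.0008, and calls of 31 features higher and 29 lower in the core (76 and 0 as reported) and of 29 higher and 41 lower in the penumbra (60 and 1). For the difference limma over arrays called 2 features, or 15 with a dye term. Leaving out 1 array gave 93 to 95 called features in the core, 24 to 35 for the difference, and penumbra medians of 0.40 to 0.48. With 1 dye alone 378 to 461 features were called between healthy and 413 to 543 between ischemic tissues, with ischemic medians of 0.047 to 0.23. The cause of these shifts was not tested. Of 280 values of single genes under the alternatives, 269 kept their side of 0, 5 gained a call and 2 lost one. Of the 11 that changed side, 6 did so under spike-in scaling. The other 5 were core Dcn (0.02), Lum (-0.22) and Mgp (0.0025) without core replicate 1, core Mgp with processed signals (0.02), and Mrgprf between ischemic tissues in Cy3 alone (0.02). Processed signals and spike-in scaling called Mrgprf lower in the core (-1.05 and -1.34), which the reported setting did not (-0.86). No paired analysis was possible because core and penumbra arrays share no replicate numbers.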
